A study of Mus musculus with 4 samples.

Results

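Astrocyte identity and reactivity genes were described here as a set of 10 genes chosen by symbol, 6 that mark reactive astrocytes (Gfap, Vim, Serpina3n, Serpina3g, Cd44, S1pr3) and 4 that mark astrocytes in their resting, homeostatic state (Aqp4, Gja1, Gjb6, Aldh1l1). The set came from 19175 genes listed in the series, which consists of 4 RNA-seq libraries of prelimbic cortex, part of the medial prefrontal cortex. All mice were C57BL/6 and 8 weeks old. All 10 genes were listed in the AAV table, which holds 1 library from mice given adeno-associated virus (AAV) expressing CDYL, a chromatin corepressor, and 1 from mice given AAV-GFP, where green fluorescent protein stands in for CDYL. In the table of the stress experiment, which holds 1 library from susceptible mice and 1 from control mice, 8 of the 10 were listed, and S1pr3 and Gja1 were not. Both of those groups carry the tag of chronic social defeat, a model of repeated attack by an aggressor, so the labels do not settle which treatment the control mice had. The promoter and the cells that the viruses reached, the time after injection and the number of mice behind a library were not given in the sources used here. With 1 library per group no difference has a replicate check, and every difference below describes these libraries only.

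Astrocytes take up glutamate and potassium, exchange small molecules through gap junctions and line vessels with endfeet rich in water channels. After injury, infection or inflammation they become reactive: they build more intermediate filaments and make protease inhibitors and surface receptors, largely through cytokine signalling to the transcription factor STAT3. Homeostatic genes follow a less uniform course in that state, and in whole tissue fewer cells of a type and less RNA per cell cannot be told apart.

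Levels are FPKM, in which fragments are divided by transcript length and library size, so that genes can be compared within a library. A gene was called higher or lower at a difference of 1.5-fold or more in FPKM + 1 within a pair, which is 0.585 on the log2(FPKM + 1) scale, among genes at 1 FPKM or more in either library. The tables list no gene above 0 in both libraries whose log2 ratio is under 0.322, so the absence of S1pr3 and Gja1 from the stress table gives no value for them. By this rule 1006 of 5334 genes were higher in the susceptible library (18.9%) and 575 lower (10.8%), and 2516 of 8047 were higher in the AAV-CDYL library (31.3%) and 1159 lower (14.4%). Subtracting the median difference of the genes passing the floor, 0.24 in the stress pair and 0.30 in the AAV pair, turned these splits to 532 higher and 1918 lower, and to 1630 and 3572. The sign of these medians depends on the floor: with a floor of 5 FPKM they were -0.33 and -0.34, and with a floor of 1 FPKM in the comparison library -0.29 and -0.32. Genes with small log2 ratios are missing, so these medians are not those of all expressed genes. Centring on them is therefore no check of the scaling. Effective depth, read from the steps between low values, was 14450000 fragments for control and 23000000 to 23950000 for the other 3 libraries, or 28.9 and 46.0 to 47.9 fragments for a transcript of 2 kb at 1 FPKM.

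RefSeq holds an upstream sequence for 9 of the 10 genes. The 250 bases before the start annotated in RefSeq are shown, 5′ to 3′ in the build of the files (GRCm38, which is mm10). They are given for the 3 reactive genes called higher in both pairs (Gfap, Vim and Serpina3n). Of 3242 genes passing the floor in both pairs, 491 (15.1%) were called higher in both. Serpina3g, listed at 0 in both comparison libraries, and Gjb6, which went in opposite directions, are shown as well. For Gfap and Vim the RefSeq start lies inside the gene positions given below, so their windows do too. Capitals mark the STAT motif TTCNNNGAA and the TATA motif TATAAA, each searched on both strands.
Gfap, chr11:102897201-102897450, minus strand: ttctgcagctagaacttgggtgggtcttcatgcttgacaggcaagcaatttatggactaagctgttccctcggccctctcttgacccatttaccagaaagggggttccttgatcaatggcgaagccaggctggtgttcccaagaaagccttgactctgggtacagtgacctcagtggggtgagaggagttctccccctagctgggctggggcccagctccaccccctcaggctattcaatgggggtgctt
Vim, chr2:13574061-13574310, plus strand: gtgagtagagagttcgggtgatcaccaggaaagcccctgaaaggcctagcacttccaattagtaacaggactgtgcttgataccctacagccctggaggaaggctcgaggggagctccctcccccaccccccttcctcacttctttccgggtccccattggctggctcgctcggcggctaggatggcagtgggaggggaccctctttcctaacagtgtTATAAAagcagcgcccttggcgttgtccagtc
Serpina3n, chr12:104406458-104406707, plus strand: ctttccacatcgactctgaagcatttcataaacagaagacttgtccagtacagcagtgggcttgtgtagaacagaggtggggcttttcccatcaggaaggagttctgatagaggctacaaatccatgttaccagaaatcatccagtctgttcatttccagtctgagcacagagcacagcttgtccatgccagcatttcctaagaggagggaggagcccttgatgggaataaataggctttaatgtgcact
Serpina3g, chr12:104235897-104236146, plus strand: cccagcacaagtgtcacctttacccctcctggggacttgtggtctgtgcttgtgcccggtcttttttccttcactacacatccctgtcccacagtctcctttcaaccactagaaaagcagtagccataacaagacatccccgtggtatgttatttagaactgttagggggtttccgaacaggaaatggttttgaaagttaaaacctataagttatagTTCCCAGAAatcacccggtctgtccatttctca
Gjb6, chr14:57133612-57133861, minus strand: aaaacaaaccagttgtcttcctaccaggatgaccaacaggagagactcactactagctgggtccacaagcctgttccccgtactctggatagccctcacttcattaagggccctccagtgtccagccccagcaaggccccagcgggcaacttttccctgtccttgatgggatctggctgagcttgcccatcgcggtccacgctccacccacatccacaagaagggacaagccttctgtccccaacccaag
The STAT motif was found in 1 of the 9 upstream sequences, that of Serpina3g, 33 bases before the start, and 7.18% of 27025 sequences of the same length hold it. The TATA motif was found in that of Vim, 32 bases before the start, and 13.0% of all sequences hold it. Upstream sequences of Gfap, Serpina3n and Gjb6 held neither.

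Serpina3n and Serpina3g are paralogs of the same cluster on chromosome 12, and the stretch of Serpina3g that carries the STAT motif has a counterpart before Serpina3n. The aligned stretches are shown because the motif differs between them, with capitals for the motif and the bases opposite it.
Serpina3g, chr12:104236113-104236143, plus strand: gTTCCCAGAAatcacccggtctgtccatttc
Serpina3n, chr12:104406584-104406614, plus strand: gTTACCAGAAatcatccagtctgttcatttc
Over 31 bases without a gap, 27 were identical (87.1%). Counted from 1 at the 5′ end of the motif in Serpina3g, the only substitution within it was C3A, which takes the Serpina3n stretch out of the searched pattern. In Serpina3n this stretch lies 123 bases before the annotated start. A match or its absence in these windows describes letters and says nothing of binding.

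Gfap encodes the main intermediate filament of astrocytes (ENSMUSG00000020932, chromosome 11, 102887336 to 102900912). It stood at 2.92 FPKM in the control library and 31.0 in the susceptible one, and at 5.85 in AAV-GFP and 386 in AAV-CDYL. It was thus low in both comparison libraries and higher in both others, by 10.6-fold in the stress pair and 66.1-fold in the AAV pair, or 3.03 and 5.82 on the log2(FPKM + 1) scale. Only 0.394% of genes passing the floor had a larger difference in the stress pair, and 0.497% in the AAV pair. Cuffdiff placed Gfap in a locus with 3 other listed genes for the stress pair and 6 for the AAV pair. The highest of these, C1ql1, stood at no more than 2.49 and 3.43 FPKM. In the authors' deposited tables Gfap has p = 0.182 and q = 0.999 for the stress pair and p = 0.0684 and q = 0.999 for the AAV pair, although smaller ratios of Vim and Serpina3n reach the smallest p of those tables.

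Vim encodes vimentin, a filament protein of reactive astrocytes that endothelial, mesenchymal and immune cells also make (ENSMUSG00000026728, chromosome 2, 13573927 to 13582826). Its level was 6.69 FPKM in control and 30.5 in susceptible, and 7.002 in AAV-GFP and 121 in AAV-CDYL. The comparison libraries lay close together, and the ratios were 4.56 in the stress pair and 17.3 in the AAV pair. In the authors' deposited tables Vim has q = 0.0225 and q = 0.00727.

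Other filament genes did not share this pattern. Nefm, a neurofilament subunit of neurons, was lower in both pairs, at 86.3 and 42.7 FPKM in the stress pair and 78.9 and 39.1 in the AAV pair. Nefh, the heavy subunit, stood at 14.3 and 7.69, and at 12.7 and 6.88. Nes, nestin, a filament of progenitor cells and some reactive astrocytes, stood at 1.64 in control and 1.10 in susceptible, which was not called, and is not listed in the AAV table. Of 6 filament genes passing the floor in each pair, 2 were higher (Gfap and Vim), while 2 were lower in the stress pair and 3 in the AAV pair. Among all genes passing, 18.9% and 31.3% were higher and 10.8% and 14.4% lower.

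Serpina3n is a secreted inhibitor of serine proteases made by reactive astrocytes (ENSMUSG00000021091, chromosome 12, 104406729 to 104414329). Control held 5.27 FPKM and susceptible 28.3, a ratio of 5.36, while AAV-GFP held 6.94 and AAV-CDYL 84.7, a ratio of 12.2. Susceptible and AAV-CDYL were thus each several-fold above their comparison library. Of its transcript windows of 50 bases, 6.90% also occur in transcripts of other genes. Serpina3n was the only listed gene of the Serpina3 cluster above 1 FPKM in control or AAV-GFP.

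Serpina3g is an intracellular relative that leukocytes also make (ENSMUSG00000041481, chromosome 12, 104236245 to 104241939). It was listed at 0 in control and 0.642 FPKM in susceptible, under the floor, and at 0 in AAV-GFP and 4.80 in AAV-CDYL. No fold can be given against 0, and in the AAV pair it passed the floor through AAV-CDYL alone, which fixes its direction. Of its windows, 15.5% occur in other genes, mainly Serpina3h, Serpina3i and Serpina3f, so its reads cannot be assigned with certainty. Serpina3f, a neighbouring paralog, was likewise listed at 0 and 0.324 FPKM in the stress pair and at 0 and 2.23 in the AAV pair. In the authors' deposited tables Serpina3g has the smallest q of both, 0.0225 and 0.00727.

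Cd44 encodes a receptor for hyaluronan found on reactive astrocytes and on leukocytes (ENSMUSG00000005087, chromosome 2, 102811141 to 102901665). It stood at 1.91 FPKM in control against 1.45 in susceptible, which was not called (-0.25), and at 1.56 in AAV-GFP and 5.12 in AAV-CDYL, a 3.28-fold difference. Cd44 was the only listed reactive gene at 1 FPKM or more in control that did not lie above it in susceptible. Among its ligands and cytoskeletal partners, Spp1, osteopontin, stood at 1.31 and 5.47 in the stress pair and 1.44 and 10.96 in the AAV pair. Msn, moesin, which links membrane receptors to actin, stood at 4.26 and 8.24, and at 4.74 and 26.5.

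S1pr3 encodes a receptor for the lipid sphingosine-1-phosphate (ENSMUSG00000067586, chromosome 13, 51408618 to 51422797). It has a value only in the AAV pair, where it stood at 2.30 FPKM in AAV-GFP and 9.66 in AAV-CDYL, a 4.20-fold difference. S1pr5, the receptor of the same family known from oligodendrocytes, stood at 1.02 in control and 4.37 in susceptible and at 1.63 and 5.10 in the AAV pair.

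**Figure D1:**
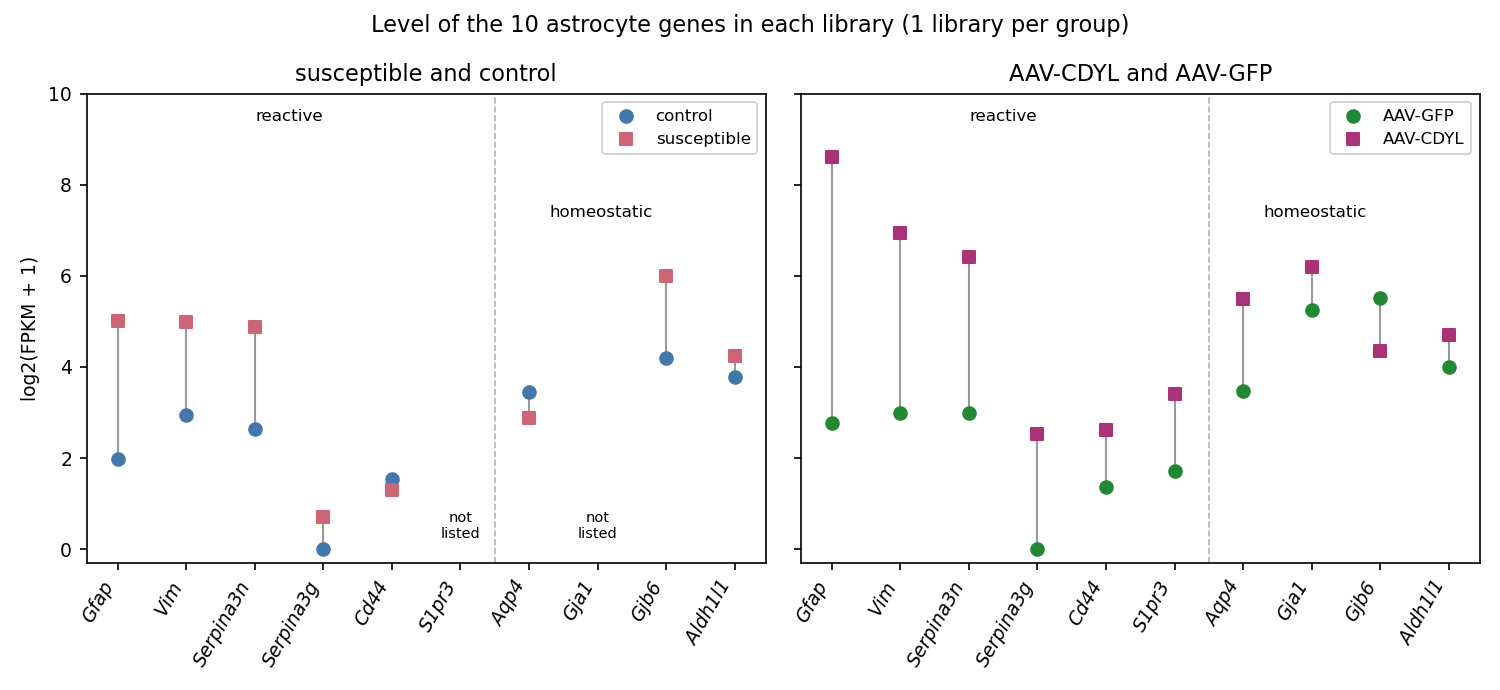
Level of each gene as log2(FPKM + 1) in the 4 libraries, with the comparison library as a circle, the other as a square and a line joining the pair; reactive genes are left of the dashed line and homeostatic genes right of it. Gfap runs from 2.92 to 31.0 FPKM on the left panel and from 5.85 to 386 on the right, while S1pr3 and Gja1 have no value in the stress pair.

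The homeostatic genes did not go one way. Aqp4 encodes the water channel of astrocyte endfeet (ENSMUSG00000024411, chromosome 18, 15389394 to 15403684). Control stood at 9.87 FPKM and susceptible at 6.36, a log2(FPKM + 1) difference of -0.56 just short of the size rule. AAV-GFP stood at 10.1 and AAV-CDYL at 43.8, 4.32-fold higher. The level was thus nearly the same in control and AAV-GFP and lay on opposite sides of it in the other libraries. Pseudocounts of 0.1 and 0.5, centring on the median and upper-quartile scaling each turned the stress value into a call of lower. In the authors' deposited tables Aqp4 has q = 0.999 for the stress pair and q = 0.0268 for the AAV pair.

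Genes that work with Aqp4 at the endfoot had small differences in the stress pair. Aqp4 itself left out, none of 4 passing the floor was called, with a median of -0.35. Kcnj10, the potassium channel Kir4.1, stood at 23.9 FPKM in the control library and 17.2 in the susceptible one, and Hepacam, an adhesion protein, at 14.7 and 21.7. In the AAV pair 4 of 5 were higher and 0 lower (median 0.72), 1 of the 4 having passed the floor through AAV-CDYL alone. Of all genes passing in that pair, 31.3% were higher. Kcnj10 stood at 23.9 and 38.9, and Mlc1, a membrane protein that binds Hepacam, at 35.1 and 62.8.

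Gja1 and Gjb6 encode connexin 43 and connexin 30, the gap junction proteins that couple astrocytes. Gja1 (ENSMUSG00000050953, chromosome 10, 56377300 to 56390419) stood at 37.1 FPKM in AAV-GFP and 72.2 in AAV-CDYL, a 1.95-fold difference, and has no value in the stress pair. Gjb6 (ENSMUSG00000040055, chromosome 14, 57123303 to 57133611) stood at 17.4 in control and 63.0 in susceptible, and at 44.7 in AAV-GFP and 19.5 in AAV-CDYL. It was therefore 3.61-fold higher in the stress pair and lower in the AAV pair, at a ratio of 0.436. Of 3242 genes passing the floor in both tables, 31 (0.956%) were called higher after stress and lower with CDYL. In the authors' deposited tables Gjb6 has q = 0.999 in both pairs, with p = 0.0953 and p = 0.248.

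The 2 comparison libraries themselves differed most for Gjb6, at 2.57 times the control level in AAV-GFP, followed by Gfap at 2.002 times. The tables were scaled separately, so this sets levels side by side and is not a test. Of 2706 genes at 1 FPKM or more in both libraries and listed in both tables, 87.1% lay within 1.5-fold and 3.95% at 2-fold or beyond. For Vim, Serpina3n, Cd44, Aqp4 and Aldh1l1 the ratio was between 0.817 and 1.32. Gjb6 stood at 17.4 FPKM in control and 19.5 in AAV-CDYL, and at 44.7 in AAV-GFP and 63.0 in susceptible. With 1 library each and separate scaling, these values do not define levels shared across the pairs.

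Gjb2, the connexin gene that neighbours Gjb6 at a gap of 18600 bases, was low and higher in both pairs, at 0.243 and 0.713 FPKM in the stress pair and 0.537 and 1.30 in the AAV pair, short of the size rule or under the floor. Oligodendrocyte connexins were also higher in both: Gjc3 stood at 5.22 and 9.95, and at 5.33 and 13.3, and Gjb1 at 1.53 and 3.38, and at 2.12 and 6.84. Among 7 connexin genes passing the floor in each pair, 3 were higher and 0 lower in the stress pair. In the AAV pair 4 were higher and Gjb6 was lower. Shares of higher over all genes passing the floor were 18.9% in the stress pair and 31.3% in the AAV pair.

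Aldh1l1 encodes a folate enzyme used as a marker of all astrocytes (ENSMUSG00000030088, chromosome 6, 90486427 to 90600203). It stood at 12.8 FPKM in control against 17.9 in susceptible, which was not called, and at 15.1 in AAV-GFP and 24.9 in AAV-CDYL, a 1.65-fold difference that was no longer called after centring on the median (0.39). Exons of other genes cover 13.4% of its exonic bases, against 1.01% for S1pr3 and 0% for the other 8 genes. The other genes listed in its locus stood at no more than 0.191 FPKM. Relative to Aldh1l1 in the same library, Gfap stood at 0.229 in control and 1.73 in susceptible, and at 0.388 in AAV-GFP and 15.5 in AAV-CDYL. Vim relative to Aldh1l1 went from 0.524 to 1.71, and from 0.464 to 4.87.

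**Figure D2:**
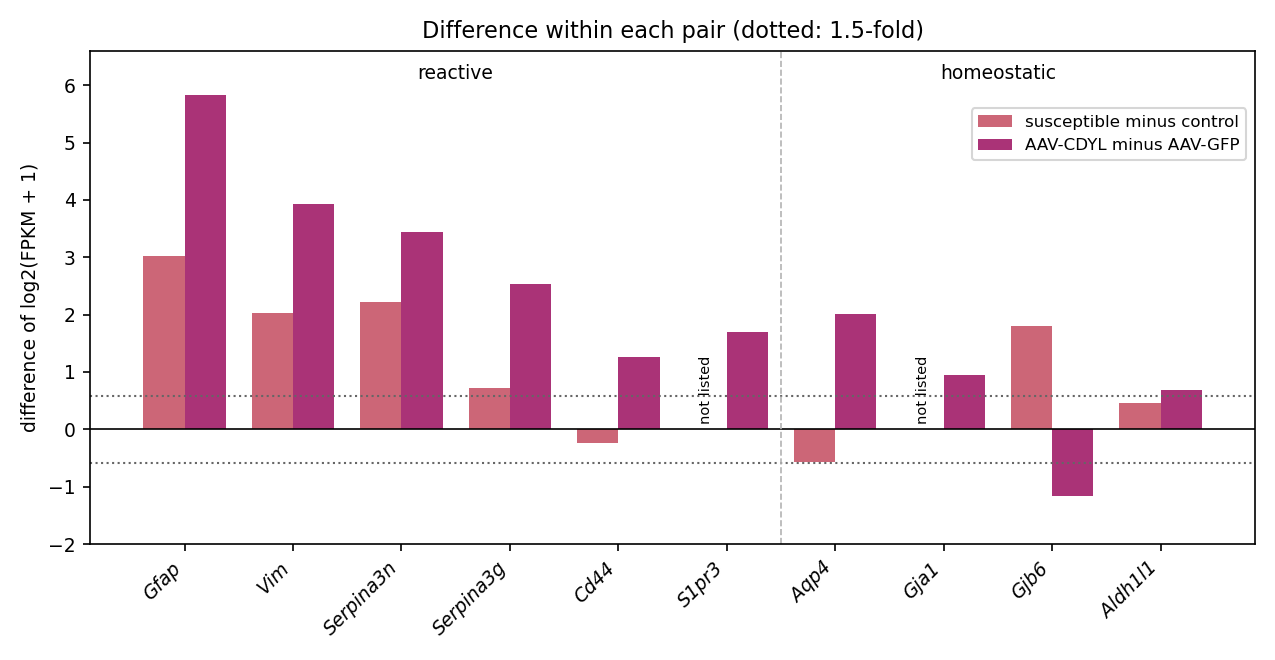
Difference of log2(FPKM + 1) within each pair for the 10 genes, as bars from 0; dotted lines mark the 1.5-fold size rule. Of the homeostatic genes, Gjb6 is above 0 in the stress pair (1.80) and below 0 in the AAV pair (-1.16), and Aqp4 is the reverse (-0.56 and 2.01).

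The median difference of the reactive genes was above that of the homeostatic genes in both pairs, although single genes overlapped: Cd44 lay below Gjb6 and Aldh1l1 in the stress pair, and Cd44 and S1pr3 lay below Aqp4 in the AAV pair. In the stress pair 3 of the 4 reactive genes passing the floor were higher and 0 lower (median 2.13), beside 1 of 3 homeostatic genes with a median of 0.45 and a median of 0.24 over all genes passing. Without Gjb6 the homeostatic median was -0.05 over 2 genes. In the AAV pair all 6 reactive genes were higher, 5 of which were at 1 FPKM or more in AAV-GFP, with a median of 2.98. The 4 homeostatic genes had a median of 0.81, with 3 higher and 1 lower, and all genes had one of 0.30, which like that of the stress pair is below 0 under the stricter floors. Over all genes passing the floor, 18.9% were higher and 10.8% lower in the stress pair, and 31.3% and 14.4% in the AAV pair. The members were few and chosen with these data known, so the counts and medians are a description.

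The summed level of the listed reactive genes went from 16.8 to 91.9 FPKM in the stress pair and from 23.7 to 612 in the AAV pair. Gfap made up 17.4% of that sum in control, 33.8% in susceptible, 24.7% in AAV-GFP and 63.2% in AAV-CDYL. For the homeostatic genes the sums were 40.1 and 87.2, and 107 and 160. Without Gjb6 they were 22.6 and 24.2 FPKM over 2 genes in the stress pair, and 62.3 and 141 over 3 genes in the AAV pair.

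The order of levels differed between the libraries of a pair. In control, the listed homeostatic genes Gjb6, Aldh1l1 and Aqp4 stood above every reactive gene, and Gfap was the sixth of 8. In susceptible, Gjb6 was still highest, followed by Gfap, Vim and Serpina3n at 31.0, 30.5 and 28.3 FPKM. In AAV-GFP the 4 homeostatic genes again led, from Gjb6 to Aqp4. In AAV-CDYL Gfap, Vim and Serpina3n were the top 3, with Gfap 3.19 times Vim, and Gjb6 stood at rank 7 of 10.

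In the authors' deposited tables, q was under 0.05 for 3 of the 8 listed members in the stress pair (Vim, Serpina3n, Serpina3g) and 4 of 10 in the AAV pair (the same 3 and Aqp4), all in the direction of higher. Over whole tables such calls of higher make up 0.284% and 0.955% of genes. Those values come from a comparison of 1 library with 1 library. Serpina3g was at 0 in both comparison libraries and at 0.642 FPKM in susceptible, under the floor. Of the genes at the smallest p, 10 of 35 in the stress pair and 95 of 117 in the AAV pair were at 0 in the comparison library.

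**Figure D3:**
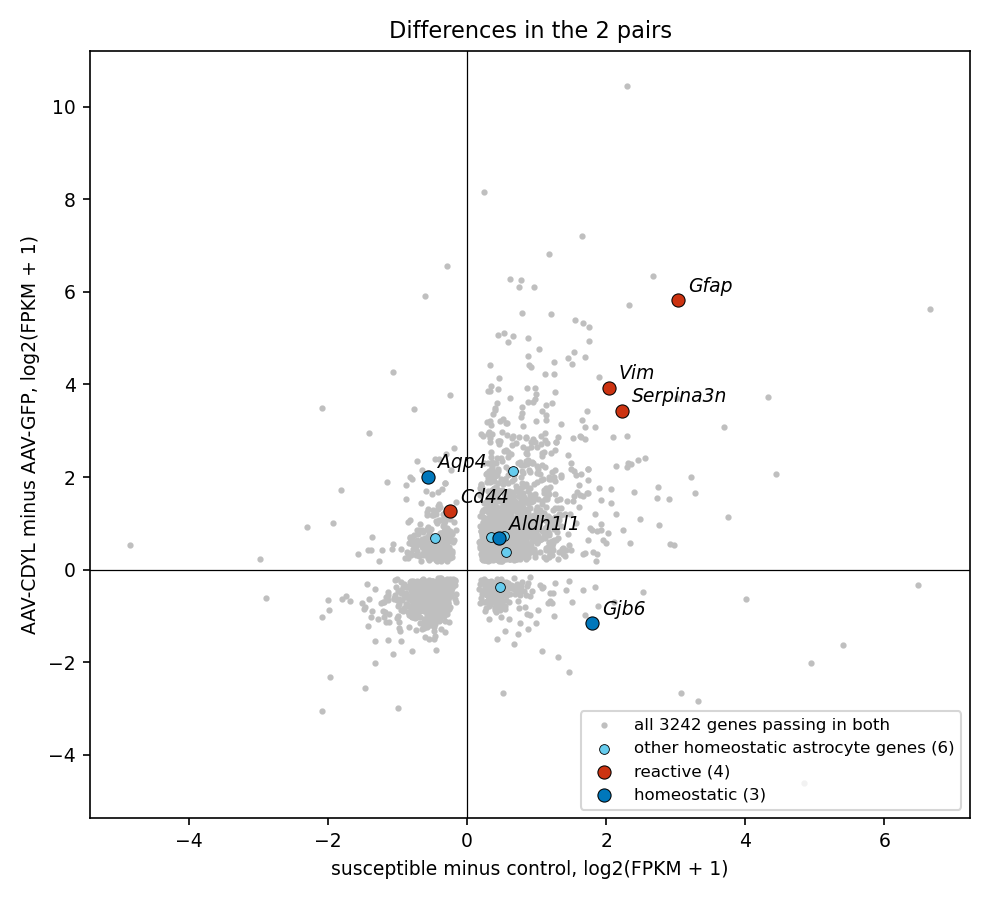
Difference in the stress pair (horizontal) against that in the AAV pair (vertical), both on log2(FPKM + 1), for 3242 genes passing the floor in both tables (grey), 6 other homeostatic astrocyte genes (light blue), and the reactive (red) and homeostatic (blue) members. Gfap, Vim and Serpina3n lie at the upper right, Aqp4 and Cd44 at the upper left and Gjb6 at the lower right; the empty bands around 0 are the small differences that the tables leave out.

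Of a list of 28 other homeostatic astrocyte genes, 17 have no value in the stress pair and 12 have none in the AAV pair. Those listed mostly had small positive differences, and genes with a log2 ratio nearer 0 than 0.322 are left out beforehand. In the stress pair 11 were listed, of which 4 were higher and 1 lower (median 0.54). Ndrg2, a growth-related protein used as an astrocyte marker, stood at 180 FPKM in the control library and 311 in the susceptible one, and Aldoc, the brain form of aldolase, at 276 and 443. Slc7a10, a transporter of small neutral amino acids, was the lower one, at 11.9 and 7.08. In the AAV pair 10 of 15 passing the floor were higher and 0 lower (median 0.66). Among all genes passing, 18.9% were higher in the stress pair and 31.3% in the AAV pair. Slc14a1, a urea transporter, led with 1.48 and 9.83, while Sox9, a transcription factor of astrocytes, stood at 4.84 and 9.35. Slc1a2, Glul and S100b have no value in either table.

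Further lists cover other reactive genes. Their counts stand beside 18.9% of all genes higher in the stress pair and 31.3% in the AAV pair. Of 10 further genes known from reactive astrocytes in general, 5 of 7 passing the floor were higher and 0 lower in the stress pair (median 0.78), and 6 of 6 in the AAV pair (median 2.26). Only 4 and 1 of these were at 1 FPKM or more in the comparison library, of which 2 and 1 were higher, so the floor fixes the direction of most. Lcn2, lipocalin 2, stood at 8.27 and 44.4 in the stress pair and at 0.277 and 8.48 in the AAV pair. Cp, ceruloplasmin, a copper-binding ferroxidase, stood at 2.79 and 5.497, and at 2.03 and 11.1. Timp1, an inhibitor of matrix proteases, was at 0.106 and 1.56, and at 0.0731 and 5.16.

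Genes described for astrocytes exposed to inflammation (the A1 list) were higher for 7 of 10 in the stress pair (median 1.06) and 9 of 10 in the AAV pair (median 3.92), 0 being lower in either. In the comparison library 6 and 5 of them were at 1 FPKM or more, of which 3 and 4 were higher, and the floor fixes the direction of the others. H2-D1, a class I histocompatibility gene, stood at 15.1 and 22.3 FPKM in the stress pair, which was not called, and at 12.03 and 448 in the AAV pair. Fkbp5, a chaperone that glucocorticoids induce, had the larger difference after stress, at 11.8 and 35.0 against 9.73 and 13.3. Genes described after ischaemia (the A2 list) were higher for 1 of 3 and for 4 of 6, with medians of 0.43 and 0.82; of the 2 and 4 at 1 FPKM or more in the comparison library, 1 and 2 were higher. Tgm1, a transglutaminase, was listed at 0 in both comparison libraries, at 0.581 in susceptible and at 2.99 in AAV-CDYL. Shares of higher over all genes passing the floor were 18.9% and 31.3%. Most genes of the A1 list are also made by microglia, vessels or leukocytes.

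Of the STAT3 pathway, 3 of 6 genes were higher and 0 lower in the stress pair (median 0.61), and 5 of 6 in the AAV pair (median 1.04). At 1 FPKM or more in the comparison library were 5 and 4, of which 2 and 3 were higher. Among all genes passing the floor, 18.9% and 31.3% were higher. Stat3 itself stood at 11.8 and 20.8 FPKM, and at 12.6 and 31.4. Socs3, its feedback inhibitor, stood at 1.49 and 3.83, and at 1.13 and 5.24, and Osmr, the receptor for oncostatin M, at 0.584 and 1.46, and at 0.466 and 3.54. The ligand gene Il6 was listed at 0 in both comparison libraries, at 0.593 in susceptible and at 0.209 in AAV-CDYL.

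Markers of other cell types differed as well, and their part in the values above was not tested. Their counts stand beside 18.9% of all genes higher in the stress pair and 31.3% in the AAV pair. In the AAV pair, 13 of 14 microglia and macrophage markers were higher, with a sum of 255 FPKM in AAV-GFP and 2176 in AAV-CDYL. T and B cell markers were higher for 10 of 10, from 1.42 to 52.2, with 6 of 12, among them Cd3g, Cd8a and Cd79a, at 0 in AAV-GFP. None of these 10 was at 1 FPKM or more in AAV-GFP, so the floor fixes their direction, whereas all 14 microglia and macrophage markers were. Both groups of cells can make Vim, Cd44 and Serpina3g. In the stress pair 3 of 10 microglia and macrophage markers were higher and 2 lower, with sums of 202 and 225. T and B cell markers summed to 0.811 and 1.61 over 4 listed genes. The higher sum came from Cd4, at 0.137 in control and 1.25 in susceptible. Ms4a1 stood at 0 and 0.0174, while Trac was lower, at 0.464 and 0.257, as was Cd79b, at 0.211 and 0.0864.

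Vessel markers were higher for 6 of 10 genes in the stress pair (120 and 300 FPKM in sum) and 5 of 8 in the AAV pair (106 and 262). Meningeal, fibroblast and mural markers were higher for 4 of 7 (8.88 and 21.7, with Col3a1 and Lum at 0 in control) and 5 of 8 (31.1 and 63.6), but of the 3 and 6 at 1 FPKM or more in the comparison library 1 and 4 were higher. Ependymal and choroid plexus markers, from cells that also make Gfap and Vim, were higher for 3 of 3 (2.70 and 9.62) and 4 of 4 (2.67 and 18.4), with Ttr, Ccdc153 and Tmem212 at 0 in both comparison libraries. In each pair 1 of these was at 1 FPKM or more in the comparison library, and the direction of the others was fixed by the floor. Oligodendrocyte markers were higher for 9 of 10 (613 and 1583) and 10 of 10 (656 and 2552). Neuron markers were lower for 1 of 4 (1263 and 909) and 4 of 7 (3796 and 2450), and 0 were higher. The 1 in the stress pair was Tubb3, in a locus of 47 listed genes. Of the 10 neuron markers, 6 have no value in the stress pair and 3 have none in the AAV pair. Beside these counts, 18.9% of all genes passing the floor were higher and 10.8% lower in the stress pair. The shares in the AAV pair were 31.3% and 14.4%.

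**Figure D4:**
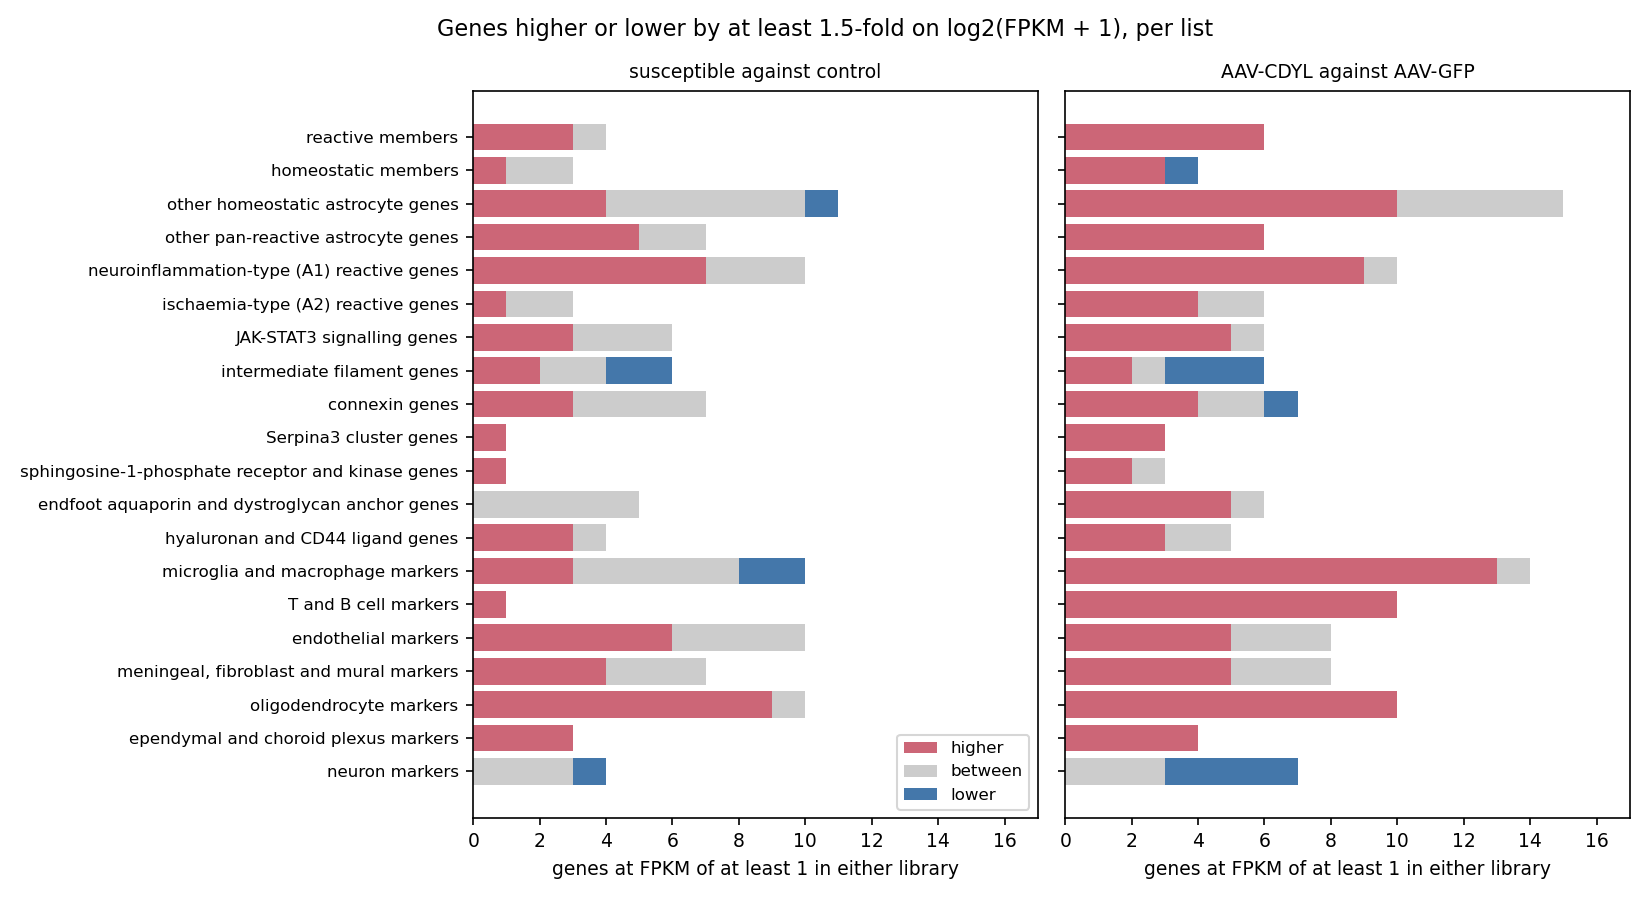
Number of genes per list that were higher (red), lower (blue) or between the limits (grey) by the 1.5-fold size rule, among genes at 1 FPKM or more in either library, for the stress pair (left) and the AAV pair (right). In the AAV pair all 6 reactive members and 13 of 14 microglia and macrophage markers are higher; neuron markers have 4 of 7 lower.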

How the data were processed

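Tissue was frozen, its RNA taken up in Trizol and sequenced from unstranded NEBNext Ultra libraries, per the labels' protocols. For each pair the authors deposited 1 table with FPKM values for 2 libraries and the p-value and q-value of their comparison; the values come from Cuffdiff on mm10, per the submitters' processing notes. The aligner and the annotation used are not given in the sources here. The susceptible column was matched to its title although its header lacks a letter, and 0 per-sample columns were left unmapped.

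Differences of log2(FPKM + 1) were taken within a table. The call needs a 1.5-fold difference and a floor of 1 FPKM in either library. No test was run, since each group has 1 library, and p-values are printed only as the authors'. Depth was read from steps of FPKM times length for genes with 1 transcript of 3 to 20 kb in GENCODE M21 (GRCm38); at least 93.3% of values from 0.5 to 4.5 steps lay within 0.15 of a whole step. This ignores fragment length. The size rule was tried on simulated data with counting noise only, starting levels of 5 FPKM or more and changes of 2-fold. That simulation holds no variation between mice or libraries and no lower starting levels, so it does not stand in for replicates. Positions are those of the deposited tables, upstream sequences are from RefSeq (GRCm38.p6), and exon overlaps and transcript windows from GENCODE M21. Members and lists were chosen with earlier results of these data known. Named genes were all 10 members, up to 3 genes per list and pair with the largest difference, and the 3 genes nearest to Gfap; a few others, such as Nefh, Nes, Gjb2, Slc7a10, H2-D1 in the stress pair and Il6, were chosen after their values were seen. Alternatives were pseudocounts of 0.1 and 0.5, no floor, floors of 5 FPKM or in the comparison library, a 2-fold rule, median centring and upper-quartile scaling. Python 3.11.15, numpy 2.4.6, pandas 2.3.3 and matplotlib 3.10.9 were used.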

Additional observations from a re-analysis of the deposited data

How the results depend on the processing

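The count of members called lower in the stress pair went from 0 to 1 with a pseudocount of 0.1, a pseudocount of 0.5, centring on the median difference and scaling to a common upper quartile; the gene was Aqp4 each time, at -0.63, -0.60, -0.81 and -0.61. Every other member count, median contrast and count of lists stayed within 1.5 times its main value under the alternatives named in the methods. Of the values for single members, 51 of 55 in the stress pair and 75 of 78 in the AAV pair kept their call, and 0 changed sign; the other 7 concern Aqp4 in the stress pair and Gja1 and Aldh1l1 in the AAV pair, which were not called by a 2-fold rule (0.94 and 0.68), nor was Aldh1l1 after centring (0.39). The contrast of reactive with homeostatic medians was 1.67 in the stress pair and 2.17 in the AAV pair. In 2 alternatives chosen after seeing the data, it was 1.42 and 1.59 without Gfap and Aldh1l1, whose loci are shared, and 2.18 and 2.04 without Gjb6. No paired analysis was possible because each group has 1 sample and the labels give no replicate numbers. Over all genes, calls of higher went from 1006 to 366 in the stress pair and from 2516 to 1424 in the AAV pair with the 2-fold rule, and to 483 and 1416 with a floor of 5 FPKM, 627 and 1417 with a floor in the comparison library and 532 and 1630 with centring. Calls of lower went from 575 to 136 and from 1159 to 145 with the 2-fold rule and to 1918 and 3572 with centring. The median used for centring lacks the small differences that are not listed, so calls under centring are no check of the scaling. Control had the lowest depth, so values under 1 FPKM are least certain there.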

Other observations

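Over the 2 pair differences, the 3 genes nearest to Gfap among 2362 others with a mean of at least 2 FPKM in both tables were Cxcl10, C4b and Ifitm3, at distances of 0.639, 0.715 and 1.54 on the log2(FPKM + 1) scale. Cxcl10, a chemokine that attracts T cells, was listed at 0 in control and 5.38 FPKM in susceptible, and at 0.0209 in AAV-GFP and 82.4 in AAV-CDYL. C4b, a complement component, stood at 0.530 and 6.66, and at 0.545 and 80.0. Ifitm3, an interferon-induced membrane protein, stood at 8.79 and 27.8, and at 3.95 and 206. Cxcl10 and C4b stood under 1 FPKM in both comparison libraries and reached the mean of 2 FPKM only through susceptible and AAV-CDYL. The filter thus fixed the direction of both, and their likeness to Gfap in direction is no result. The distances cover 4 libraries.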
